A study of Mus musculus with 16 samples.

Results

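A set of 100 genes, of 10313 eligible, was lowest in mouse forebrain neuronal cultures that carried a short hairpin RNA with 2 mutations, by comparison with an empty vector and with 2 other versions of the hairpin. They were chosen from the readout. Counts-per-million (CPM, a gene's count as parts of 1e6 of the library's total count) were averaged over the 4 libraries of each group. Protein-coding genes other than Rtn4 were kept where the mean was at least 5 CPM in each of the empty-vector, unmutated-hairpin and 5-mutation-hairpin groups, which left the 10313 of the 55335 genes in the count table. These were ranked by the ratio of the 2-mutation-hairpin mean to the lowest of the other 3 means, and the 100 genes with the lowest ratio were taken. The low level with the 2-mutation hairpin, and that it lies under every other group, is therefore the choice itself and carries no test here.

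The samples were primary forebrain neuronal cultures from perinatal mice, transduced with lentiviral vectors, and the RNA was total RNA sequenced after ribosomal RNA depletion. Each of the 4 groups had 4 libraries: an empty vector (labelled Empty_Vector), a hairpin (shRNA, called the unmutated hairpin), and versions of it labelled shRNA_2bp and shRNA_5bp, called the 2-mutation and the 5-mutation hairpin here. All groups, the controls included, had received lentivirus. The labels give neither the hairpins' sequences or target, nor the promoter that drives them, nor the strain, and no label tells if replicate libraries are separate cultures, so p-values measure only how these libraries scatter, which may be technical. Library totals were 33795369 to 49824569 counts overall and 41618901 to 49824569 counts in the 2-mutation libraries. Rtn4, which encodes the myelin-associated growth inhibitor Nogo and which the rule leaves out, averaged 849.7 ± 16.4 CPM (SD, n = 4) with the empty vector, 31.4 ± 0.916 with the unmutated hairpin, 119.9 ± 3.98 with the 2-mutation hairpin and 859.9 ± 21.5 with the 5-mutation hairpin. It was thus low with the unmutated and the 2-mutation hairpin and at the empty-vector level with the 5-mutation hairpin. Pan-neuronal markers were high in every group, with a summed level of 11677 to 12006 CPM with the empty vector and 11907 to 12171 with the 2-mutation hairpin, all 20 markers being tested. The summed level of 5 tested microglial markers was 18.3 to 21.2 CPM with the empty vector and 19.4 to 21.2 with the 2-mutation hairpin.

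Hairpin RNAs expressed from a vector are cut by the enzymes that make microRNAs, which leaves a small guide RNA. The guide is loaded into an Argonaute protein and directs it to transcripts. Near-complete pairing leads to slicing of the transcript, while pairing of the guide's seed, bases 2 to 8 counted from its 5′ end, with a 3′ UTR is enough to lower many transcripts by destabilisation, as microRNAs do. Changing bases of a hairpin therefore changes both the intended pairing and the set of seed matches, and mutated hairpins are commonly used as controls. In neurons, many transcripts of channels, adhesion molecules, signalling enzymes and scaffolds have long 3′ UTRs with sites for small RNAs.

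The ratio of the 100 genes ran from 0.0370 to 0.281 with a median of 0.229, which is 3.56-fold to 27.0-fold, and at the median 4.37-fold, below the lowest of the other 3 groups. The median of their group means was 34.4 CPM with the empty vector, 40.4 with the unmutated hairpin, 42.2 with the 5-mutation hairpin and 6.74 with the 2-mutation hairpin. The median over all 10313 eligible genes was 39.9, 41.5, 41.8 and 39.0 CPM in the same order, so that the list sits at an ordinary level in the 3 groups where it is not low. In all 100 genes the 4 libraries with the 2-mutation hairpin lay below all 12 others, which was so for 24.7% of eligible genes. The rule ranks group means and not single libraries, but ratios this low make the count likely, so it is no test. In bulk RNA, fewer cells of a type and less RNA per cell cannot be told apart.

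**Figure D1:**
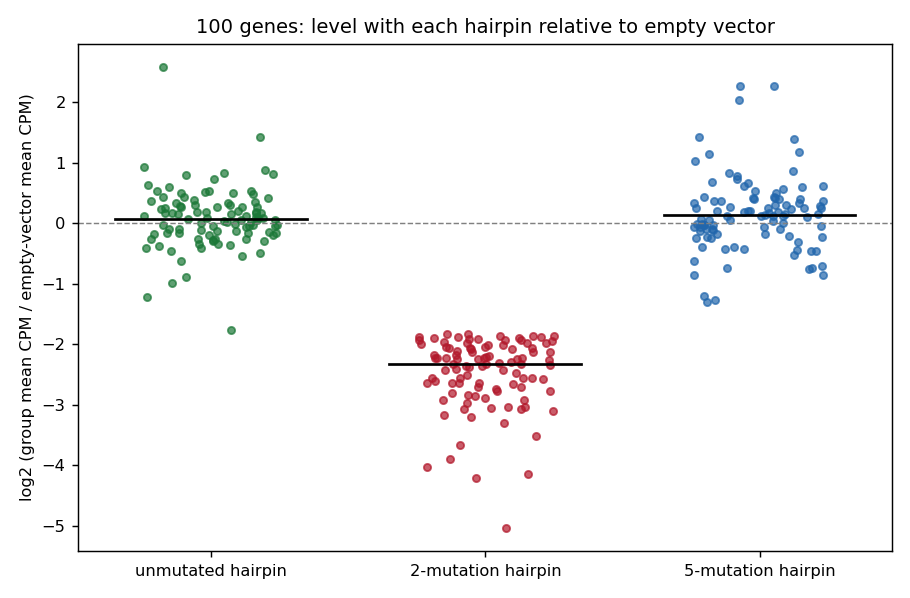
Each point is 1 of the 100 genes, and its height is log2 of the group mean CPM over the empty-vector mean CPM, with the median as a black line. The 2-mutation values all lie far below 0 by the choice of genes, at least 3.56-fold under the empty vector, while the unmutated and 5-mutation values scatter on both sides of 0.

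The 4 libraries with the 2-mutation hairpin behaved alike. Their median level over the list was 19.0%, 20.5%, 20.2% and 19.7% of the empty-vector mean, and the median coefficient of variation of a gene over them was 7.94%, against 6.17% over the empty-vector libraries. When the rule was applied without each of them in turn, 96 or 97 of the 100 genes were chosen again. The library left out gave the 100 genes chosen without it a median ratio of 0.222 to 0.236. All of these 100 had a ratio under 0.5 in it, against 4.56% to 4.88% of eligible genes, and 86 to 90 were among its own 100 lowest. The left-out library was still compared with the same control libraries, and no label tells if it is a separate culture. Libraries that scatter little repeat the choice, so these values show only how alike the 4 libraries were. The members just inside the border were Fgf9, Prph, Grm5, Pde8b and Nubpl, with ratios of 0.279 to 0.281. The genes just outside were Ogfrl1 at 0.285, Klhl4 at 0.288, Itgb8 at 0.289, Klf5 at 0.289 and Minar1 at 0.289, so there was no gap at the border.

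The genes also varied among the other 3 groups. The highest of the 3 other means was 1.39 times the lowest at the median, near the 1.30 of all eligible genes. It was under 1.5 times in 63 genes and at least 2 times in 14. In Dgkk it was 5.995 times, more than the 3.82-fold fall that chose the gene. The lowest of the 3 lay in the empty-vector group in 37 genes, in the unmutated group in 32 and in the 5-mutation group in 31. Among eligible genes the shares were near these, at 39.3%, 27.0% and 33.7%.

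Sequence was not used by the rule. In the longest annotated 3′ UTR of each gene (GENCODE vM21 on GRCm38), every possible 7-mer, 16384 in all, was counted as present or absent on the transcript's strand. A UTR of at least 50 bases was annotated for 99 of the 100 genes, Rtl9 having none, and for 14241 protein-coding genes tested, these 99 included. The 7-mer with the largest difference in share was ATGACAA. It was picked on these same genes as the largest of 16384 differences. It was present in 38 of the 99 genes, or 38.4% (95% Wilson interval 29.4% to 48.2%, which covers counting error only and not the picking), against 10.4% of all genes. The next 7-mers overlap it: AATGACA was in 41 genes, 41.4% against 13.6%, and TGACAAA in 37, 37.4% against 13.3%. At least 1 of the 3 was present in 63 genes, 63.6% against 25.5%. At least 2 copies of ATGACAA were present in 12 genes, 12.1% against 1.37%, and B3galt2 and Prkg1 had 3.

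**Figure D2:**
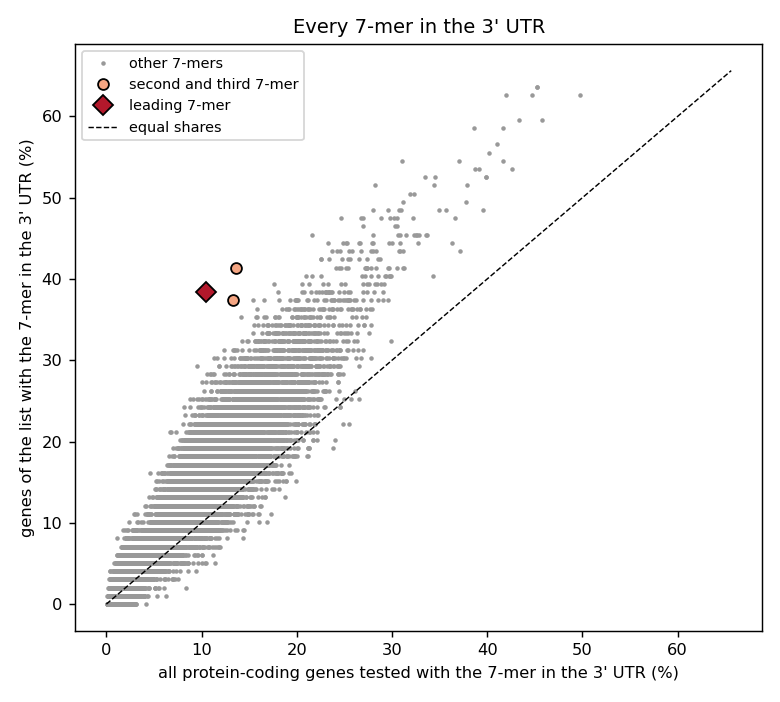
Each point is a 7-mer, placed by the percentage of all protein-coding genes tested (horizontal axis) and of the 99 genes of the list (vertical axis) whose 3′ UTR holds it, with a dashed line where the shares are equal. ATGACAA (diamond, 38.4% against 10.4%) and the overlapping AATGACA and TGACAAA (circles) stand above the other 7-mers of the same overall share, and most of the cloud lies above the line.

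Sites from 8 genes whose levels are described here show the context. The 7-mer ATGACAA is in capitals, bases are given 5′ to 3′ on the strand of the transcript, and coordinates are GRCm38.
Dynlt3, chrX:9654522-9654544, minus strand, 3′ UTR base 1451 of 1720: taactctaATGACAAgaatgcaa
Hapln1, chr13:89609114-89609136, plus strand, 3′ UTR base 973 of 3503: tacattacATGACAAaaaccatc
Dlg2, chr7:92448881-92448903, plus strand, 3′ UTR base 4272 of 4630: cttttactATGACAAttttgtgc
Met, chr6:17572485-17572507, plus strand, 3′ UTR base 670 of 2157: gtacatagATGACAAtaggaaat
Ago2, chr15:73105039-73105061, minus strand, 3′ UTR base 1855 of 11064: tcttactaATGACAAtagtctct
B3galt2, chr1:143647556-143647578, plus strand, 3′ UTR base 168 of 7218: tgcaaattATGACAAaaaggtat
Rac1, chr5:143506752-143506774, minus strand, 3′ UTR base 209 of 3341: gccctaaaATGACAAagccttct
Prkg1, chr19:30565422-30565444, minus strand, 3′ UTR base 3802 of 4749: tatgctgcATGACAAagacaaac
The bases around the 7-mer differ from site to site. The 7-mer was absent from the UTR of Grp, Slc6a7, Acan and Nos1.

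Longer UTRs hold more of any 7-mer, and the list had longer ones: the median was 2143.5 bases against 1400 of eligible genes, with 42.4% against 44.3% G and C. The shares of all genes are instead over the 14241 tested, to which the floor of 5 CPM did not apply. Split by UTR length, ATGACAA was in 5 of 19 listed genes of the shortest of 3 classes of equal size (26.3% against 2.30% of all genes), in 9 of 23 of the middle class (39.1% against 7.65%) and in 24 of 57 of the longest class (42.1% against 21.4%). The share was above that of all genes in each class. Since the 7-mer was picked for its excess in these same genes, an excess within the classes is in part given by the pick. The coding sequence also held the 7-mer more often, in 40 of the 100 genes against 18.4% of all genes, and 23 of these had none in the UTR. In the UTR or the coding sequence together it was present in 61 of 99 genes, 61.6% against 26.4%.

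**Figure D3:**
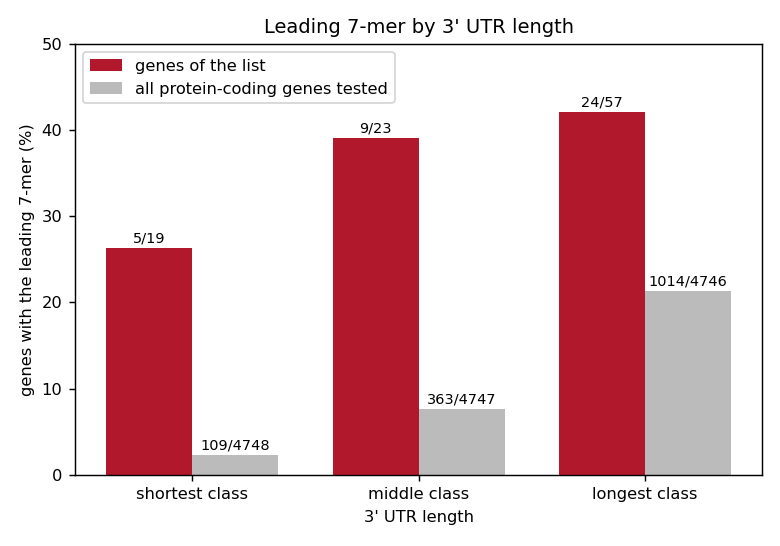
Bars give the percentage of genes with ATGACAA in the 3′ UTR in 3 classes of UTR length with equal numbers of genes, for the listed genes (red) and all protein-coding genes tested (grey), with the counts above them. The listed genes are at 26.3%, 39.1% and 42.1%, each above the grey bar of the same class at 2.30%, 7.65% and 21.4%.

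The 7-mer was found at every depth of the fall. It was in 8 of 25 genes of ranks 1 to 25, in 7 of 24 of ranks 26 to 50, in 13 of 25 of ranks 51 to 75 and in 10 of 25 of ranks 76 to 100. The median ratio was 0.240 in genes with it and 0.215 in genes without it. Among the 50 lowest ratios alone its share was 30.6% and it ranked 136 of all 7-mers by difference in share, behind TCTCTTT at 53.1% against 23.2%. Over the 200 lowest ratios it ranked 1 again at 40.2%.

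The same rule applied to each of the other hairpins, with 100 genes each, gave lists with other leading 7-mers. ATGACAA was in 14.0% of the genes low with the unmutated hairpin and in 12.0% of those low with the 5-mutation hairpin. The leading 7-mer of the unmutated hairpin's list was TGAAACA, in 65.0% of that list, in 25.3% of the 2-mutation list and in 15.6% of all genes. That of the 5-mutation hairpin's list was CTAACCA, in 47.0% of its own list, 6.06% of the 2-mutation list and 7.74% of all genes. Among the 3 leading 7-mers of each list, the closest pair of the unmutated and 2-mutation lists was TGAAACA and TGACAAA, which differ at 2 positions (A4C and C6A, counted from 1 at the 5′ end, with the base of the first 7-mer first). The closest pair of the 5-mutation and 2-mutation lists was TAACCAA and TGACAAA (A2G and C5A). Rtn4 has 1 copy of TGAAACA in its 3′ UTR and 2 in its coding sequence, and none of the 3 leading 7-mers of the 2-mutation list in either. None of 1679 mature mouse microRNAs in the RefSeq table pairs through bases 2 to 8 with ATGACAA. Of 20 neuronal and common microRNA families looked up there, 19 were found and miR-124 was not, so the table is not complete. Seed matches of 17 families were in a larger share of the list than of all genes. The difference was at most 13.1 percentage points (miR-23), and UTR length bears on these too.

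Genes outside the list were then compared by the same 7-mer, which had been chosen on the list and thus on the same libraries, so the values are given without a p. Of 14141 such genes 1448 had it. For each library a score was computed, the difference in centred log2 CPM between genes with and without the 7-mer at equal UTR length and GC content. Each gene was centred on its mean over all libraries, so low scores in some libraries raise those of the others. Only differences between groups therefore have a meaning, not the sign of a score. The score was 0.112, 0.111, 0.111 and 0.117 in the empty-vector libraries and 0.0701, 0.0870, 0.0942 and 0.0880 in the unmutated ones. It was 0.0887, 0.103, 0.0919 and 0.0896 with the 5-mutation hairpin and -0.292, -0.290, -0.277 and -0.306 with the 2-mutation hairpin. The 2-mutation libraries lay apart from the 12 others, by -0.40 from the empty-vector mean, -0.38 from the unmutated and -0.38 from the 5-mutation mean. Against the empty vector, the median log2 fold change with the 2-mutation hairpin was 0.11 in the 12693 genes without a copy, -0.30 in the 1265 with 1 copy and -0.72 in the 183 with more. By edgeR, with a Benjamini-Hochberg adjusted p below 0.05 as the call, 29.1%, 55.3% and 71.0% of them were lower, against 30.8% of all 19479 genes tested. With the other hairpins the median for the same classes was 0.03, -0.01 and -0.06 (unmutated) and 0.02, -0.02 and -0.11 (5-mutation). The shares called lower there were 22.7%, 30.6% and 35.5% with the unmutated and 30.9%, 37.5% and 43.7% with the 5-mutation hairpin, so they also rose with the number of copies, against 19.5% and 26.5% of all genes. Genes with more copies also have longer UTRs, with medians of 1099, 2515 and 4122 bases.

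**Figure D4:**
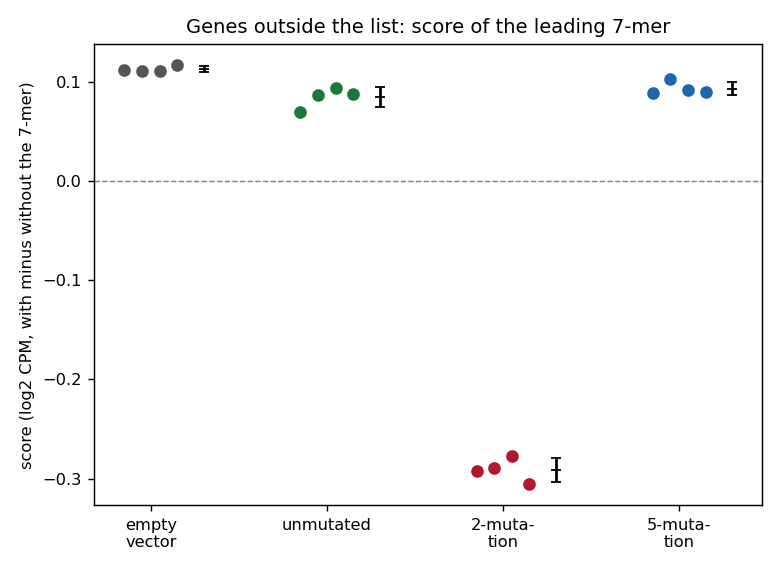
Each point is a library, and its height is the score of ATGACAA over 14141 genes outside the list, in log2 CPM units; the bar beside each group is the mean with its SD (n = 4). The 2-mutation libraries lie between -0.306 and -0.277, and the 12 others between 0.0701 and 0.117. Genes were centred over all libraries, so only differences between groups have a meaning.

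The genes themselves are described by what their products do, with the level in CPM of every library for some, and the range in each group or the fold below the lowest other group for the rest. Counts of genes on a functional list leave out the 100 genes, which the rule made low, and call a gene changed at an edgeR adjusted p below 0.05. Where only the 2-mutation hairpin is counted against the empty vector, the count does not tell if the other hairpins share the change. CPM is not divided by gene length, so levels are compared between groups and not between genes. Gastrin-releasing peptide (Grp), a neuropeptide of subsets of forebrain neurons, had the lowest ratio. It read 12.4, 10.9, 10.7 and 9.58 CPM with the empty vector, 10.4, 8.26, 9.69 and 7.66 with the unmutated hairpin, 14.5, 9.26, 13.6 and 14.4 with the 5-mutation hairpin, and 0.323, 0.408, 0.199 and 0.401 with the 2-mutation hairpin. The 2-mutation libraries were all below 1 CPM, and the 12 others were all above 7 CPM. The mean was 27.02-fold below that of the unmutated group, which was the lowest of the others. Slc6a7, a brain proline transporter, read 32.96, 29.1, 29.3 and 27.5 CPM with the empty vector, 28.2, 23.9, 26.04 and 25.7 with the unmutated hairpin, 49.7, 47.9, 42.9 and 42.6 with the 5-mutation hairpin, and 1.55, 1.68, 1.55 and 1.61 with the 2-mutation hairpin. Here the 2-mutation mean was 16.3-fold below the lowest other mean, and the 5-mutation libraries were above all others. Of the other 33 transporters on the same list, 16 were lower and 11 higher with the 2-mutation hairpin than with the empty vector, against 30.8% lower and 32.5% higher of all genes tested.

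**Figure D5:**
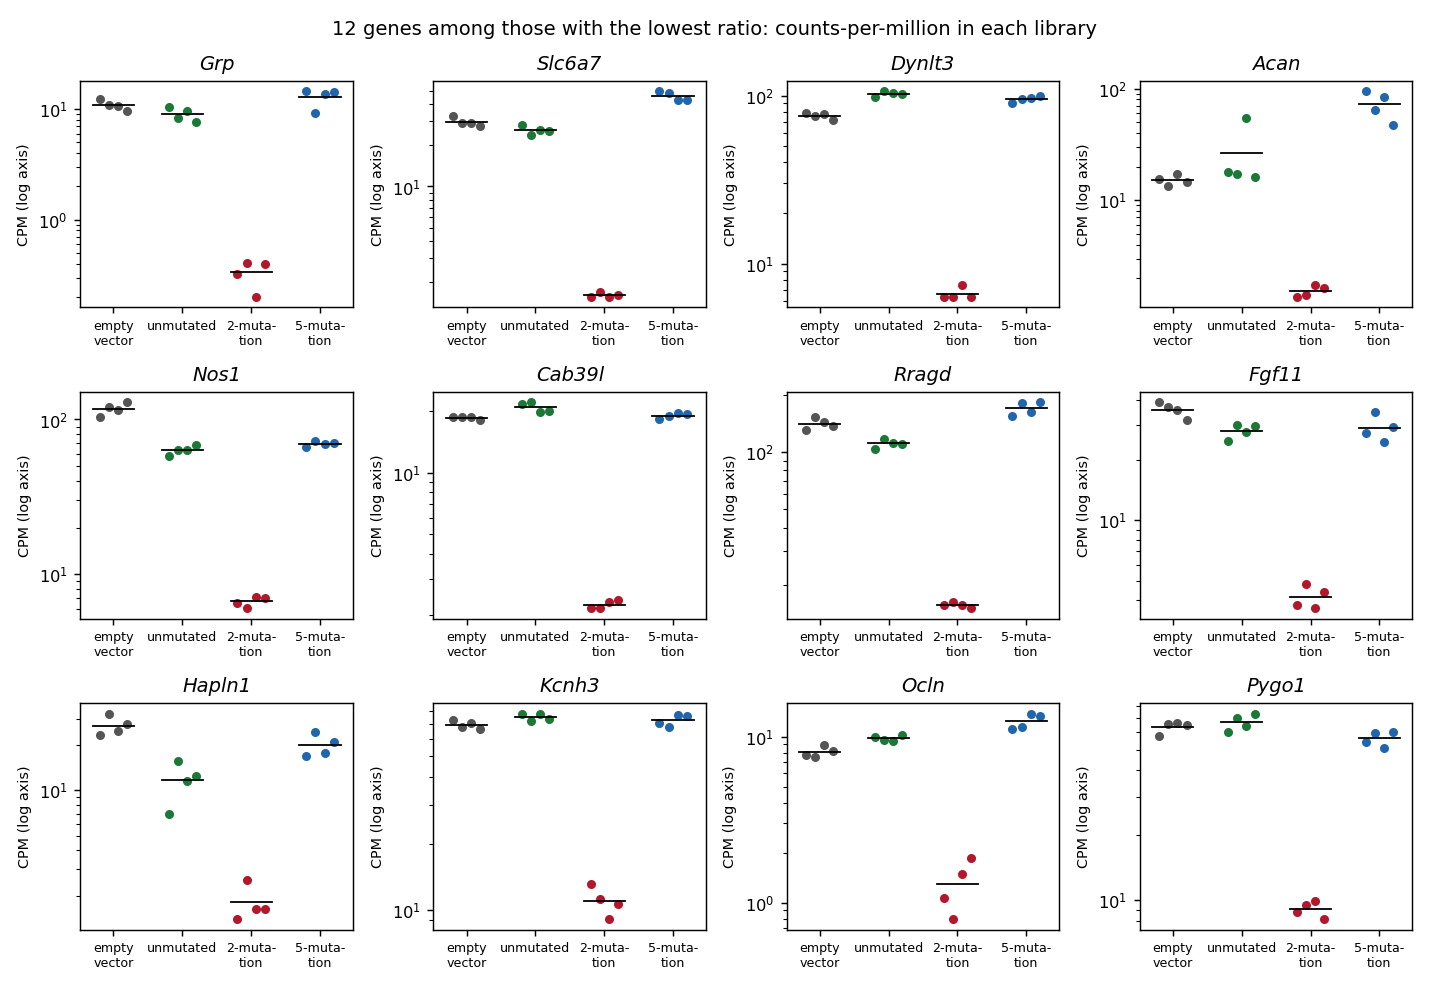
Points are the 4 libraries of each group in CPM on a log axis, with the group mean as a bar, for 12 of the genes with the lowest ratio. In each panel the 2-mutation libraries (red) lie below the others, from 27.0-fold for Grp to 6.21-fold for Pygo1. Every gene shown except Kcnh3 also passed the edgeR call in some comparison among the other groups, Acan, Nos1 and Hapln1 included.

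Genes of the extracellular matrix around neurons were among the lowest. Aggrecan (Acan, chr7:79053483-79115099, plus strand), the main proteoglycan of perineuronal nets, read 15.3, 13.3, 17.2 and 14.6 CPM with the empty vector, 17.9, 17.1, 54.8 and 16.1 with the unmutated hairpin, 94.3, 64.03, 84.7 and 47.2 with the 5-mutation hairpin, and 1.35, 1.42, 1.73 and 1.65 with the 2-mutation hairpin. The third unmutated library stood above its group, and the 5-mutation libraries were all above the empty-vector ones. Its 2-mutation mean was 9.85-fold below the empty-vector mean. Hapln1, the link protein that ties aggrecan to hyaluronan, read 23.2, 32.3, 24.6 and 27.6 CPM with the empty vector, 6.9998, 15.6, 11.5 and 12.5 with the unmutated hairpin, 16.9, 24.6, 17.7 and 20.9 with the 5-mutation hairpin, and 1.39, 2.55, 1.64 and 1.65 with the 2-mutation hairpin. It was 6.45-fold below the unmutated group, which in turn lay under the empty-vector libraries without overlap. Of the 30 other tested matrix genes 14 were lower and 8 higher with the 2-mutation hairpin than with the empty vector, against 30.8% and 32.5% of all genes tested. Itgbl1, an integrin-beta-like secreted protein, ranged over 4.58 to 8.60 CPM with the empty vector, 4.18 to 6.55 with the unmutated hairpin, 5.29 to 10.2 with the 5-mutation hairpin, and 0.625 to 1.13 with the 2-mutation hairpin, so its 2-mutation level was near 1 CPM.

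Several signalling enzymes were on the list. Nos1, the neuronal nitric oxide synthase, read 104, 121, 116 and 129 CPM with the empty vector, 58.2, 63.2, 63.6 and 68.5 with the unmutated hairpin, 66.8, 72.7, 69.3 and 70.3 with the 5-mutation hairpin, and 6.48, 6.03, 7.15 and 7.06 with the 2-mutation hairpin. The unmutated and 5-mutation libraries were themselves below all empty-vector libraries, and the 2-mutation mean was 9.49-fold below the unmutated one. Dgkk, a diacylglycerol kinase, read 23.5, 21.7, 30.7 and 28.03 CPM with the empty vector, 134, 143, 196 and 151 with the unmutated hairpin, 31.6, 26.7, 29.5 and 20.6 with the 5-mutation hairpin, and 5.69, 7.26, 7.97 and 6.28 with the 2-mutation hairpin. It was high with the unmutated hairpin, the empty-vector and 5-mutation libraries overlapped, and the 2-mutation mean was 3.82-fold below the empty-vector mean. Of the 30 other genes of lipid and protein kinase C signalling 18 were lower and 7 higher with the 2-mutation hairpin than with the empty vector, against 30.8% and 32.5% of all genes tested.

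Kinases, phosphodiesterases and G protein genes were also on the list. Prkg1, a cGMP-dependent kinase with 3 copies of ATGACAA, ranged over 24.97 to 26.999 CPM with the empty vector, 27.3 to 30.3 with the unmutated hairpin, 32.1 to 36.7 with the 5-mutation hairpin, and 6.62 to 7.17 with the 2-mutation hairpin. Pde8b, a cyclic AMP phosphodiesterase, was 3.56-fold, Itpka, an inositol trisphosphate kinase of dendritic spines, 3.72-fold, and Plcxd3, a phospholipase-C-like protein, 5.98-fold below the lowest other group. Gnal, the olfactory-type stimulatory G protein alpha subunit of striatal neurons, ranged over 282 to 307 CPM with the empty vector, 191 to 238 with the unmutated hairpin, 147 to 178 with the 5-mutation hairpin, and 34.1 to 47.6 with the 2-mutation hairpin. Its unmutated and 5-mutation libraries lay below the empty-vector range, and the 2-mutation libraries lowest. Gnb4, a G protein beta subunit, was 4.19-fold and Rasgrp2, an activator of the small GTPase Rap, 3.69-fold below the lowest other group. Rragd, a Rag GTPase that brings mTORC1 to the lysosome, ranged over 131 to 153 CPM with the empty vector, 104 to 118 with the unmutated hairpin, 154 to 182 with the 5-mutation hairpin, and 15.1 to 16.2 with the 2-mutation hairpin, and Cab39l, a scaffold of the kinase Lkb1, over 18.1 to 18.8 CPM with the empty vector, 19.8 to 22.1 with the unmutated hairpin, 18.3 to 19.6 with the 5-mutation hairpin, and 2.16 to 2.37 with the 2-mutation hairpin. For Cab39l the empty-vector and 5-mutation libraries overlapped and the unmutated ones were slightly higher, whereas for Rragd the unmutated libraries were below and the 5-mutation libraries above the empty-vector ones.

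Channels, receptors and synaptic proteins of several families were on the list. Scn3b, a sodium channel beta subunit, ranged over 243 to 254 CPM with the empty vector, 289 to 295 with the unmutated hairpin, 205 to 214 with the 5-mutation hairpin, and 33.99 to 35.3 with the 2-mutation hairpin. Kcnh3, a potassium channel of forebrain neurons, ranged over 66.3 to 72.7 CPM with the empty vector, 72.1 to 77.9 with the unmutated hairpin, 67.8 to 77.1 with the 5-mutation hairpin, and 9.10 to 13.2 with the 2-mutation hairpin, and Kcng3, a modifying subunit of potassium channels named after its values were seen, over 14.8 to 15.6 CPM with the empty vector, 13.004 to 15.6 with the unmutated hairpin, 25.1 to 30.3 with the 5-mutation hairpin, and 3.11 to 3.56 with the 2-mutation hairpin. Of 52 other potassium channel genes on the functional list 33 were lower and 8 higher than with the empty vector, against 30.8% and 32.5% of all genes tested. The sodium and calcium channel list had 21 lower and 8 higher of its 30 other genes, beside the same background. Both lists also leaned lower with the other hairpins. With the unmutated hairpin 26 potassium channel genes were lower and 9 higher, and 16 and 2 of the sodium and calcium list, against 19.5% and 20.8% of all genes. With the 5-mutation hairpin these were 27 and 14, and 22 and 4, against 26.5% and 28.4%. Dlg2, the scaffold PSD-93, read 768, 812, 822 and 785 CPM with the empty vector, 771, 809, 826 and 824 with the unmutated hairpin, 477, 513, 470.3 and 495 with the 5-mutation hairpin, and 99.96, 98.1, 100.1 and 91.5 with the 2-mutation hairpin. Its empty-vector and unmutated libraries overlapped, the 5-mutation libraries were lower, and the 2-mutation mean was 5.02-fold below the 5-mutation mean. Of 29 other postsynaptic scaffolds 20 were lower and 7 higher with the 2-mutation hairpin, against 30.8% and 32.5% of all genes tested. Grm5, a metabotropic glutamate receptor, ranged over 440.3 to 519.5 CPM with the empty vector, 346 to 407 with the unmutated hairpin, 299 to 397 with the 5-mutation hairpin, and 91.7 to 98.6 with the 2-mutation hairpin, at the border of the list. Syngr3, a synaptic vesicle protein, was 4.11-fold and Doc2b, a calcium sensor of vesicle release, 3.84-fold below the lowest other group, with 30 of 46 other release genes lower and 9 higher than with the empty vector, against 30.8% and 32.5% of all genes tested.

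Adhesion molecules, growth factors and their receptors came next. The protocadherins Pcdh19, Pcdh7 and Pcdh9, homophilic adhesion proteins, were 5.70-fold, 4.66-fold and 3.93-fold below the lowest other group. Pcdh19, in humans a gene whose loss causes an epilepsy, ranged over 142 to 171 CPM with the empty vector, 106 to 153 with the unmutated hairpin, 126 to 174 with the 5-mutation hairpin, and 22.7 to 24.2 with the 2-mutation hairpin. Tenm3, a teneurin that matches pre- and postsynaptic partners, was 3.60-fold below. Of 57 other adhesion genes 41 were lower and 12 higher with the 2-mutation hairpin than with the empty vector, against 30.8% and 32.5% of all genes tested. Met, the hepatocyte growth factor receptor, read 262, 215, 275 and 263 CPM with the empty vector, 69.7, 60.02, 92.5 and 76.96 with the unmutated hairpin, 96.8, 101.2, 102 and 114 with the 5-mutation hairpin, and 16.99, 13.2, 15.8 and 16.4 with the 2-mutation hairpin. Both other hairpin groups were below the empty vector without overlap, and the 2-mutation libraries were below those again. Fgf11, an intracellular fibroblast growth factor homologue that binds sodium channels, ranged over 31.7 to 38.9 CPM with the empty vector, 25.04 to 30.1 with the unmutated hairpin, 24.5 to 34.9 with the 5-mutation hairpin, and 3.63 to 4.81 with the 2-mutation hairpin, and the secreted Fgf9 over 15.3 to 16.95 CPM with the empty vector, 10.7 to 13.3 with the unmutated hairpin, 17.9 to 20.3 with the 5-mutation hairpin, and 2.89 to 3.69 with the 2-mutation hairpin. By symbol, for families picked and tallied after the values were seen, the list held 4 of 57 eligible Pcdh genes, 3 of 11 Fgf, 2 of 56 Kcn, 1 of 12 Col, 1 of 59 Rab, 1 of 185 Slc and 1 of 290 Zfp genes. Of all eligible genes it held 100 of 10313. Acvr1c, an activin receptor, was 5.58-fold, and Plxdc2, a transmembrane protein, 5.47-fold below the lowest other group.

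Cytoskeletal genes and regulators of motors included Dynlt3, a light chain of cytoplasmic dynein with 2 copies of ATGACAA (chrX:9654267-9663003, minus strand). It read 78.4, 75.7, 77.4 and 71.98 CPM with the empty vector, 98.3, 106, 103 and 103 with the unmutated hairpin, 90.2, 95.9, 96.5 and 99.1 with the 5-mutation hairpin, and 6.32, 6.32, 7.48 and 6.30 with the 2-mutation hairpin. All 4 empty-vector libraries were under those of the other hairpins, and the 2-mutation mean was 11.5-fold below the empty-vector mean. Of the 51 other dynein, kinesin and microtubule genes 28 were higher and 17 lower with the 2-mutation hairpin than with the empty vector, against 32.5% and 30.8% of all genes tested. Rac1, a small GTPase that builds actin in spines and growth cones, read 237, 225, 227 and 232 CPM with the empty vector, 254, 248, 256 and 239 with the unmutated hairpin, 138, 133, 141 and 143 with the 5-mutation hairpin, and 35.5, 32.97, 32.6 and 33.5 with the 2-mutation hairpin. The 5-mutation libraries lay under the empty-vector and unmutated ones, and the 2-mutation libraries were 4.12-fold lower again. Prph, a neuronal intermediate filament, ranged over 4.70 to 6.73 CPM with the empty vector, 7.66 to 9.02 with the unmutated hairpin, 22.2 to 25.98 with the 5-mutation hairpin, and 1.53 to 1.99 with the 2-mutation hairpin, so that it was high with the 5-mutation hairpin as well as low with the 2-mutation hairpin. Ecel1, an injury-induced endopeptidase, was 5.08-fold below the lowest other group.

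Ago2 (chr15:73095844-73184935, minus strand), the Argonaute that slices transcripts paired with a guide, was itself on the list. It read 328, 341, 361 and 362 CPM with the empty vector, 488, 530.1, 551 and 554 with the unmutated hairpin, 393, 413, 402 and 398 with the 5-mutation hairpin, and 81.997, 79.2, 86.5 and 75.9 with the 2-mutation hairpin. The unmutated libraries were highest, the 5-mutation libraries were above the empty-vector ones, and the 2-mutation mean was 4.30-fold below the empty-vector mean. Of the 13 other tested genes of the RNA interference machinery 5 were lower and 4 higher with the 2-mutation hairpin than with the empty vector, near the 30.8% and 32.5% of all genes tested.

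Nuclear factors, organelle proteins and others made up the rest of the lowest 25. Pygo1, a cofactor of Wnt signalling, was 6.21-fold below the lowest other group, Rreb1, a Ras-responsive zinc finger factor, 6.20-fold and Zbtb46, a zinc finger repressor, 6.08-fold. The tight junction protein Ocln was 6.24-fold, the lipid-binding membrane protein Tex2 6.06-fold, Commd10, a COMM domain protein, 5.85-fold, Fam149a 5.68-fold and the zinc finger gene Zfp984 5.54-fold lower. Ocln had the widest relative spread over the 2-mutation libraries, with a coefficient of variation of 35.6%. Mtfp1, a mitochondrial fission protein, read 30.8, 30.5, 28.1 and 28.4 CPM with the empty vector, 26.6, 26.2, 25.1 and 27.3 with the unmutated hairpin, 11.8, 12.3, 12.2 and 12.8 with the 5-mutation hairpin, and 2.58, 2.09, 2.43 and 2.21 with the 2-mutation hairpin. It was low in the 5-mutation libraries too, though less so. Tshz2 and Etv1, cortical layer transcription factors, were 4.39-fold and 3.69-fold, Ube3c, a ubiquitin ligase, 4.18-fold and Calb2 (calretinin, a calcium buffer of interneurons) 3.97-fold below the lowest other group. The 40 genes outside the naming rule were 3.59-fold to 5.41-fold below, from 2-mutation means of 1.09 to 127.5 CPM. Only 35 genes were on any of the 40 functional lists, spread over 22 lists with at most 4 on 1.

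The comparisons that the rule did not set against each other are those among the 3 other groups, and these were tested with edgeR over all 19479 genes. The rule still used the means of these groups, in the floor and as the lowest of the 3. It thus asks that none of them be low relative to the 2-mutation group, which can bear on the counts below. They share libraries pairwise, so their values stand side by side and are not compared as independent. Between the unmutated hairpin and the empty vector 55 of the 100 genes changed, 27 higher and 28 lower, where 40.3% of all genes tested changed, 20.8% higher and 19.5% lower. Between the 5-mutation hairpin and the empty vector 71 changed, 40 higher and 31 lower, against 54.9% of all genes (28.4% and 26.5%). Between the 5-mutation and the unmutated hairpin 72 changed, 37 higher and 35 lower, against 55.3% (28.5% and 26.8%). The floor of 5 CPM removes weakly measured genes from the list and not from the 19479. The median log2 fold change was 0.01, 0.05 and 0.03 over the list and 0.01, 0.03 and 0.03 over all genes. Both directions were present in each comparison, and 5, 10 and 6 genes passed the call with more than a 2-fold difference, against 5.16%, 12.3% and 11.2% of all genes. In none of the 3 comparisons did 11 genes change, among them Kcnh3, Zfp984, Itgbl1 and Pcdh7, against 28.1% of all genes.

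Among the genes with the largest differences, Dgkk rose with the unmutated hairpin (log2 fold change against the empty vector 2.51, SE 0.16, edgeR adjusted p = 3.0e-08) and not detectably with the 5-mutation hairpin (-0.02, SE 0.17, edgeR adjusted p = 0.92). Met fell with both, by 1.82 on the log2 scale with the unmutated hairpin (SE 0.13, edgeR adjusted p = 2.9e-08) and by 1.37 with the 5-mutation hairpin. Cyp26b1, which breaks down retinoic acid, read 7.76, 7.19, 7.23 and 7.21 CPM with the empty vector, 21.9, 20.3, 23.8 and 12.7 with the unmutated hairpin, 43.7, 33.6, 35.8 and 28.1 with the 5-mutation hairpin, and 1.63, 1.42, 1.79 and 1.40 with the 2-mutation hairpin. It rose with both other hairpins, with log2 fold changes of 1.36, SE 0.17, edgeR adjusted p = 1.1e-05 and 2.19, SE 0.17, edgeR adjusted p = 2.1e-08. Acan rose with the 5-mutation hairpin (2.18, SE 0.38, edgeR adjusted p = 2.6e-04), and did not pass the call with the unmutated one (0.74, SE 0.38, edgeR adjusted p = 0.14). Its difference between the 5-mutation and unmutated hairpins was 1.44, and 2.08 without the third unmutated library. Prph rose with the 5-mutation hairpin by 1.95, SE 0.10, edgeR adjusted p = 2.9e-13, and Fras1, a basement membrane protein, by 1.31, SE 0.10, edgeR adjusted p = 2.0e-08.

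Others moved in opposite directions in the other hairpin groups. Col26a1, a collagen, read 22.1, 17.2, 21.2 and 17.5 CPM with the empty vector, 12.8, 12.1, 14.3 and 11.3 with the unmutated hairpin, 54.5, 51.5, 54.8 and 48.9 with the 5-mutation hairpin, and 2.95, 3.08, 3.32 and 3.25 with the 2-mutation hairpin. It fell with the unmutated hairpin (-0.69, SE 0.08, edgeR adjusted p = 5.8e-07) and rose with the 5-mutation hairpin (1.35, SE 0.08, edgeR adjusted p = 2.4e-12). Abca8a, an ATP-binding cassette transporter, ranged over 26.2 to 31.05 CPM with the empty vector, 51.6 to 58.8 with the unmutated hairpin, 12.01 to 19.9 with the 5-mutation hairpin, and 3.75 to 5.20 with the 2-mutation hairpin, higher with the unmutated hairpin (0.88, SE 0.12, edgeR adjusted p = 1.3e-05) and lower with the 5-mutation hairpin (-0.93, SE 0.12, edgeR adjusted p = 5.2e-06). Mtfp1 and Rac1 fell with the 5-mutation hairpin, by 1.34 and 0.81 on the log2 scale (edgeR adjusted p = 1.9e-14 and 5.2e-13). In all, 16 genes were higher and 15 lower with both other hairpins than with the empty vector, 7 were lower with the unmutated and higher with the 5-mutation hairpin, and 6 the reverse. Of all genes tested these were 10.3%, 10.2%, 3.91% and 4.27%, and both comparisons use the same empty-vector libraries. B3galt2, a Golgi galactosyltransferase with 3 copies of ATGACAA, ranged over 113 to 122 CPM with the empty vector, 106 to 129 with the unmutated hairpin, 115 to 139 with the 5-mutation hairpin, and 24.7 to 28.8 with the 2-mutation hairpin and passed the call in none of the 3 comparisons. Bcap29, an endoplasmic reticulum protein, and Anxa11, an annexin, rose with both, by 0.81 and 0.76 with the unmutated and 0.65 and 0.59 with the 5-mutation hairpin. Acot2, an acyl-CoA thioesterase of mitochondria, rose with the unmutated hairpin (0.68, SE 0.10, edgeR adjusted p = 5.5e-06), and Man1a, a Golgi mannosidase, rose with the 5-mutation hairpin (1.11, SE 0.09, edgeR adjusted p = 8.7e-09).

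Markers of cell types moved beside some of these genes. The summed level of 20 inhibitory neuron markers, Calb2 included, was 1426 to 1670 CPM with the empty vector, 493 to 764 with the unmutated, 537 to 775 with the 5-mutation and 716 to 960 with the 2-mutation hairpin. Of the 19 outside the list, 13 were lower and 2 higher with the 2-mutation hairpin than with the empty vector, against 30.8% and 32.5% of all genes tested. Their median log2 fold change with the 2-mutation hairpin was -0.80 against the empty vector. It was 0.32 against the unmutated and 0.70 against the 5-mutation hairpin, so these markers were not lowest with the 2-mutation hairpin. Nos1, Calb2, Met and Hapln1 fell with both other hairpins in the same direction as these markers. They are among the 15 listed genes lower with both, while 16 listed genes were higher with both. The part of the interneuron markers in the levels of these genes was not tested. Among 19 tested astrocyte markers 10 were lower and 1 higher with the 2-mutation hairpin than with the empty vector, against 30.8% and 32.5% of all genes tested. Their summed level was 1499 to 1895 CPM with the empty vector and 1406 to 2028 with the unmutated hairpin. It was 838 to 1253 CPM with the 5-mutation and 1223 to 1491 with the 2-mutation hairpin. The part of the astrocyte markers was not tested either. Excitatory neuron markers summed to 4783 to 5154 CPM with the empty vector and 4175 to 4545 with the unmutated hairpin. The sum was 3510.5 to 3570.0 CPM with the 2-mutation and 2854 to 3161 with the 5-mutation hairpin, where it was lowest. With the 2-mutation hairpin 7 of 18 were lower and 7 higher, beside the same shares of all genes. With the 5-mutation hairpin 12 were lower and 1 higher, against 26.5% and 28.4% of all genes. With the unmutated hairpin 6 were lower and 5 higher, against 19.5% and 20.8%.

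In position, the 100 genes lay on 20 chromosomes, with 9 on chromosome 18 and 8 on the X, which hold 3.04% and 3.47% of eligible genes. Their median gene span was 54.0 kb against 28.2 kb, from 3.81 kb to 1973 kb (Dlg2), and the median coding length 1531.5 bases against 1476. An annotated gene on the opposite strand overlaps 50 of them, against 46.2% of eligible genes, among them Grp, Nos1, Cab39l, Rragd, Hapln1, Kcnh3, Scn3b, Dlg2, Grm5, Rac1 and Ago2. Libraries were made by a directional method, while the strand setting of the counting is not given in the sources used here, so reads of the partner may be included. Reads that match several genes could be split between near-identical copies for Acot2, Zfp984 and the Pcdhga10 cluster.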

How the data were processed

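Total RNA of 16 libraries, 4 in each of 4 groups named by the treatment label, was measured. The tools named in the submitters' processing notes are STAR 2.7.2b with the build GRCm38.p6, featureCounts, edgeR, cutadapt 1.15 under Trim Galore 0.6.0, and bcl2fastq 2.20.0.422. The deposited table holds raw counts, whole numbers for 55335 Ensembl genes, which the authors made by assigning reads to genes. Strand setting, annotation release and treatment of multiply matching reads are not given in the sources used here, and genes on the mitochondrial chromosome (37) hold no counts.

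Gene symbols, types, positions and UTRs came from GENCODE vM21 (GRCm38), which 55154 IDs matched without and 54587 with version, 181 not matching. MicroRNA sequences came from RefSeq. CPM here is the count over the column sum, without TMM scaling. Genes passing filterByExpr (19479) were fitted with TMM factors and edgeR 4.0.16 (R 4.3.3) by robust quasi-likelihood, with 1 coefficient per group over 16 libraries. The 2-sided calls use a Benjamini-Hochberg adjusted p below 0.05 over all genes tested. Alternatives were RLE factors, DESeq2 1.42.0, no filter on low counts, only the groups compared, a replicate block, leaving out Gm26917 and Gm42418, and each library left out. The fits and the 7-mer scan were tested on simulated data. Scans used Python 3.11.15, numpy 2.4.6 and pandas 2.3.3, and figures matplotlib 3.10.9. At least 33795369 counts per library put 1 CPM above 30 counts.

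The members, the 40 functional lists, 20 microRNA families (1 unmatched) and the naming rule were chosen with earlier results of these data known. Genes named are the 25 lowest ratios, up to 6 per list, those at the border, the 5 highest and 5 lowest called changes of each tested comparison, and those with most copies of the leading 7-mer, 60 in all, of which 1 is not reported here. Exceptions chosen after their values were seen are Kcng3, Pcdhga10 and Rtl9, the gene with no UTR. The scores over genes outside the list were added after seeing the data.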

Additional observations from a re-analysis of the deposited data

Results flagged for a closer look

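In groups of 4 libraries, a library was singled out where its gap to the nearest other took up more of the group's range than Dixon's critical value at the 95% level. Chance singles out about 1 in 20 groups, and 13 of 180 groups of 45 genes were singled out. Acan in the third unmutated library was at 54.8 CPM against 16.1 to 17.9 in the other 3. With the empty vector, the first library stood apart for Pygo1 at 58.0 CPM, Tex2 at 108 and Cyp26b1 at 7.76, the second for Rreb1 at 24.8 and Man1a at 32.6, and the fourth for Cab39l at 18.1. With the unmutated hairpin the first library stood apart for Zfp984 at 7.91 CPM and the fourth for Prph at 7.66. With the 5-mutation hairpin the second library stood apart for Grp at 9.26 CPM. With the 2-mutation hairpin the third library stood apart for Dynlt3 at 7.48 CPM, Commd10 at 1.88 and Prph at 1.99, and each of these stayed under all 12 other libraries.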

How the results depend on the processing

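The number of listed genes called between groups other than the 2-mutation one stayed within 1.5 times its value under every alternative tried. With each library left out it was 51 to 55 (unmutated against empty vector), 65 to 71 (5-mutation against empty vector) and 64 to 72 (5-mutation against unmutated). With a replicate block it was 65, 75 and 77. The main fit had no block, since no label says that a number marks a shared culture. Same-numbered libraries correlated at -0.0215 to 0.272 over 24 pairs, with a median of 0.0989. Libraries of other numbers correlated at -0.349 to 0.296, with a median of -0.0320, and 11 of 16 libraries correlated best with their own number. If same-numbered libraries share a culture or batch was not tested. With TMM-scaled CPM 98 of the 100 genes were chosen again, and the median ratio moved to 0.243. With a floor of 1 CPM in place of 5 only 57 were chosen again, since lower genes then entered. With a floor of 10 it was 79, with the mean of the other 3 groups in place of the lowest 81, and with each of the 16 libraries left out 96 to 100, at median ratios of 0.225 to 0.230. The share with ATGACAA was 39.0% with a floor of 10 CPM, beside the same 10.4% of all genes. Over all annotated UTR bases of a gene it was 39.4%. The share of all genes over these longer sequences is not given here, so the excess cannot be read from that value. The score differences were -0.409 to -0.399, -0.381 to -0.371 and -0.389 to -0.380 (against empty vector, unmutated and 5-mutation) with each library left out. Among single genes, the difference of Acan between the 5-mutation and unmutated hairpins lost its call when only those groups were fitted (1.43, edgeR adjusted p = 0.051, against 0.0042 with all groups, and 1.7e-06 to 0.015 over the other settings with a filter on low counts). The cause was not tested. Means of 2-mutation levels under 1 CPM (Grp and Itgbl1) rest on few counts.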
